A study of Mus musculus with 6 samples.

Results

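The genes described here are *Star*, *Cyp11a1*, *Hsd3b1*, *Cyp17a1*, *Cyp19a1*, *Inha*, *Inhba*, *Amh*, *Lhcgr* and *Fshr*, 10 genes of ovarian steroid synthesis, gonadotropin reception and granulosa cells, among 20076 genes in the deposited table. They were chosen by name as a measure of remaining ovary in orthotopic ovarian tumors. Libraries were made from RNA of primary tumors in C57BL/6 mice, 3 of them wild-type (WT) and 3 knocked out for *Tgm2* (*Tgm2* KO), 6 weeks after both ovarian bursae were injected with the mouse ovarian cancer line ID8 Trp53-/- Brca1-/-, which lacks both tumor suppressors. Mice of both groups received the same cancer cells, so the knockout of *Tgm2*, which encodes a transglutaminase, is in the host alone, while the cells come from a single cancer line. The labels give neither the age of the mice, nor the stage of the estrous cycle, nor whether a library holds 1 or both ovaries of a mouse. The values are normalized counts and sum to between 32316613 (*Tgm2* KO tumor 1) and 37717165 (*Tgm2* KO tumor 3) per tumor, with 1 read worth between 0.938 and 1.09 normalized counts. In bulk RNA, fewer cells of a type and less RNA per cell cannot be told apart.

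Granulosa cells surround the oocyte in each ovarian follicle and respond to follicle-stimulating hormone, while theca cells outside the follicle respond to luteinizing hormone and make androgens that granulosa cells convert to estrogens. After ovulation, the remaining follicle cells become the corpus luteum, which secretes progesterone. Steroid synthesis starts when cholesterol is carried into the mitochondrion, where its side chain is cut off, and the product is then converted stepwise to progesterone, androgens and estrogens.

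The upstream sequences of 4 of these genes are printed. They are the receptors for the gonadotropins and, as examples, *Hsd3b1* and *Cyp19a1*, which varied widely across the tumors. RefSeq held 250 bases before the start of a transcript for 7 of the 10 genes (*Cyp11a1*, *Hsd3b1*, *Cyp19a1*, *Inha*, *Inhba*, *Lhcgr* and *Fshr*, 10 windows on GRCm38.p6), and 2 of the windows (in *Cyp11a1* and *Inha*) overlap an annotated exon and are not shown. The other *Cyp11a1* window overlaps no exon, holds none of the motifs searched below and is not shown either. *Cyp11a1* varied more across the tumors than *Cyp19a1* (SD 3.24 against 2.22 on the log2 scale). The sequences below run 5′ to 3′ on the strand of the gene and end at the base before the start, and capitals mark the motifs found.
Hsd3b1 (chr3:98859795-98860044, minus strand): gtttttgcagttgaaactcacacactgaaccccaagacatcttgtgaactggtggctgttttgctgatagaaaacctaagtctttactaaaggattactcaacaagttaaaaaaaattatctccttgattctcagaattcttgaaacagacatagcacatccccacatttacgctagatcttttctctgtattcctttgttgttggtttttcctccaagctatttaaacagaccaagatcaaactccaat
Cyp19a1 (chr9:54268165-54268414, minus strand): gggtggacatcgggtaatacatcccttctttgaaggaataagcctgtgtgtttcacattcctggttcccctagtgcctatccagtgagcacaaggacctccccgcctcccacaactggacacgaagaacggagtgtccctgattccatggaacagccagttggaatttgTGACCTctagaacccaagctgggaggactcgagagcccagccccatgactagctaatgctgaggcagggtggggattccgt
Lhcgr (chr17:88792015-88792264, minus strand): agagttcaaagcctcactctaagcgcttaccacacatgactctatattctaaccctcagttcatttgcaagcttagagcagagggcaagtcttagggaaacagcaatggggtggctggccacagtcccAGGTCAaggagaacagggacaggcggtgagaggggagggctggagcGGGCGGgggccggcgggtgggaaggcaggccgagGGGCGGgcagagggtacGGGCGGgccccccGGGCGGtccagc
Fshr (chr17:89200676-89200925, minus strand): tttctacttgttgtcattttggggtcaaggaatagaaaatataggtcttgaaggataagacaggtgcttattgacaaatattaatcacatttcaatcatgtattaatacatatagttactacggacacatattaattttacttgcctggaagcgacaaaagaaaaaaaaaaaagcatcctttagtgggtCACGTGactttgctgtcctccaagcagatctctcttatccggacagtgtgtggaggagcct
Windows were searched on both strands for the hormone receptor motif AGGTCA, which nuclear receptors such as the steroidogenic factor encoded by *Nr5a1* can bind, for the cyclic AMP response element TGACGTCA, for the E box CACGTG and for the GC box GGGCGG. The *Lhcgr* window holds the receptor motif 122 bases before the start and 4 GC boxes 76, 42, 25 and 12 bases before it. In the *Fshr* window, an E box lies 61 bases before the start, and in the printed *Cyp19a1* window the receptor motif lies on the opposite strand, where the printed strand reads TGACCT, 81 bases before the start. *Cyp19a1* has 3 RefSeq windows, of which the one farthest upstream is printed because it holds a motif and the other 2 hold none. The *Hsd3b1* window holds none of these letters. Of the 10 windows, 4 hold the receptor motif (1 each of *Cyp11a1*, *Cyp19a1*, *Inha* and *Lhcgr*), 0 the cyclic AMP element, 1 the E box and 1 the GC box. Among 32851 RefSeq windows of the same length, the shares with each motif were 14.0%, 1.55%, 6.02% and 32.7%. A match of letters is a description and not a bound site.

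*Tgm2* (chromosome 2, 158116402 to 158146436) had its lowest WT value above its highest *Tgm2* KO value, with a log2 fold change of -1.02 (SE 0.22, adjusted p = 0.391 from limma). *Tgm2* RNA in a knockout tumor can include that of the injected cells. The 10 ovarian genes did not divide the tumors by genotype. Of these, 9 were highest in *Tgm2* KO tumor 1, while 13.0% of the 19667 genes tested were highest there, and the exception was *Star*. WT tumor 1 was second for 6 of the 10 (*Cyp11a1*, *Hsd3b1*, *Inhba*, *Amh*, *Lhcgr* and *Fshr*). For *Hsd3b1*, *Cyp17a1*, *Cyp19a1*, *Amh*, *Lhcgr* and *Fshr*, *Tgm2* KO tumor 1 lay at least 4-fold above each of the other 5 tumors, which was seen for 1.05% of the genes tested (207 genes with at least 10 normalized counts in that tumor). This fold was reached in WT tumor 3 by 368 genes, in WT tumor 1 by 36, in WT tumor 2 by 14, and in *Tgm2* KO tumors 2 and 3 by 57 and 27, and the 10 genes were not among them.

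**Figure D1:**
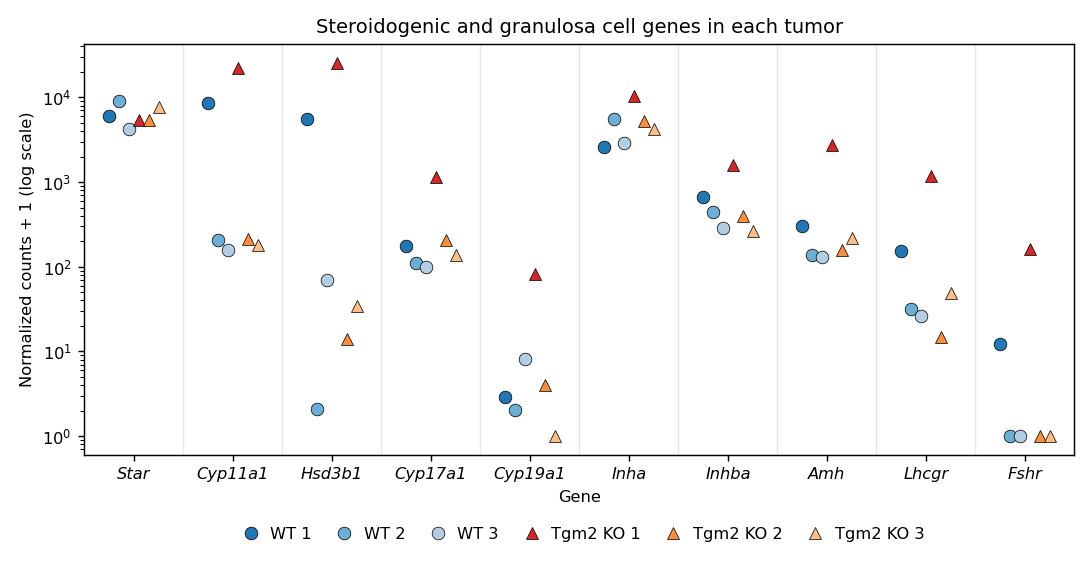
Normalized counts plus 1 (log scale) of the 10 genes in each tumor, with circles for the 3 WT tumors and triangles for the 3 *Tgm2* KO tumors. *Tgm2* KO tumor 1 is highest for 9 genes, and *Star* stays between 4223 and 8970.0 in all 6 tumors.

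*Star* (chromosome 8, 25806555 to 25815982) encodes the protein that carries cholesterol into the mitochondrion. The WT tumors, numbered 1 to 3, had 5987, 8970.0 and 4223 normalized counts, against 5339.5, 5450.2 and 7639 in the *Tgm2* KO tumors in the same order. It was abundant in all 6 tumors, its highest value was 2.12-fold its lowest, and the groups overlapped. Its SD across the tumors on the log2 scale, 0.39, was below the median SD of the tested genes, 0.47. *Cyp11a1* (chromosome 9, 58006411 to 58027023) encodes the enzyme that cuts the cholesterol side chain, the first step of steroid synthesis. It had 8648, 208 and 158 normalized counts in the WT tumors, against 22480.4, 209 and 178 in the *Tgm2* KO tumors. The tumor numbered 1 was high in each group, while the other 4 tumors lay within 158 to 209, so that the range was 142-fold. *Hsd3b1* (chromosome 3, 98852194 to 98859794) encodes the dehydrogenase that converts pregnenolone to progesterone. Its normalized counts were 5526, 1.07 and 68.1 in the WT tumors, against 25704, 13.2 and 33.4 in the *Tgm2* KO tumors. As for *Cyp11a1*, the high values were those of the tumors numbered 1, but the other 4 tumors also differed among themselves. The SD of *Hsd3b1* across tumors, 5.25 on the log2 scale, ranked 6 of 19667 tested genes from the highest, and that of *Cyp11a1*, 3.24, ranked 122. *Hsd3b1* has related genes, and its values may depend on how reads were divided among them, which was not tested. Of these, *Hsd3b2* had between 0 and 19.3 normalized counts. *Cyp11a1* overlaps the long noncoding RNA *Gm17322* on the same strand.

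*Cyp17a1* (chromosome 19, 46667165 to 46673172) encodes the theca cell enzyme that leads to androgens. It had 175, 109 and 99.5 normalized counts in the WT tumors, against 1157, 204 and 138 in the *Tgm2* KO tumors. *Tgm2* KO tumor 1 stood 5.69-fold above the next tumor, *Tgm2* KO tumor 2, and WT tumor 1, with 175, was not set apart from the other tumors. *Cyp19a1* (chromosome 9, 54165937 to 54268110) encodes aromatase, which granulosa cells use to make estrogens. Its normalized counts were 1.91, 1.05 and 7.15 in the WT tumors, against 82.1, 2.97 and 0 in the *Tgm2* KO tumors. Apart from *Tgm2* KO tumor 1, these values are at most 7.15 normalized counts, and the order of the other 5 tumors cannot be read from them. WT tumor 1, second for *Cyp11a1* and *Hsd3b1*, thus had aromatase RNA near the level of 2 reads.

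*Inha* (chromosome 1, 75507077 to 75510366) encodes the inhibin alpha subunit, which forms inhibin with a beta subunit and lowers the secretion of follicle-stimulating hormone. Its normalized counts were 2585, 5495 and 2892 in the WT tumors, against 10367, 5318 and 4197 in the *Tgm2* KO tumors. It was high in all 6 tumors, with a 4.01-fold range, and its lowest value was that of WT tumor 1. *Inhba* (chromosome 13, 16011851 to 16031621) encodes a beta subunit that forms activin with itself and inhibin with the alpha subunit. It had 668, 440 and 289 normalized counts in the WT tumors, against 1589.6, 399 and 262 in the *Tgm2* KO tumors, a 6.06-fold range, with the tumors numbered 1 highest in each group. *Inhba* overlaps the antisense gene *Gm48444*, and whether strand was used in the quantification is not given in the sources used here. *Amh* (chromosome 10, 80805243 to 80807648) encodes anti-Müllerian hormone, a product of the granulosa cells of growing follicles. Its normalized counts were 302, 136 and 129 in the WT tumors, against 2766, 155 and 216 in the *Tgm2* KO tumors. *Tgm2* KO tumor 1 was 9.17-fold above WT tumor 1, and the other 4 tumors lay between 129 and 216.

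*Lhcgr* (chromosome 17, 88716481 to 88791990) encodes the receptor for luteinizing hormone, found on theca cells, luteal cells and the granulosa cells of mature follicles. It had 151, 30.6 and 24.9 normalized counts in the WT tumors, against 1176, 13.9 and 48.6 in the *Tgm2* KO tumors. *Tgm2* KO tumor 1 was 7.80-fold above WT tumor 1, which in turn was above the other 4 tumors. *Fshr* (chromosome 17, 88984952 to 89200675) encodes the receptor for follicle-stimulating hormone, which in the ovary marks granulosa cells. It was detected in the tumors numbered 1 alone, at 11.4 normalized counts in WT tumor 1 and 162 in *Tgm2* KO tumor 1, and was listed at 0 in the other 4. At the value of 1 read given above, the count of 0 allows up to about 3 reads in each of those tumors. *Star* and *Inha* had at least 4223 and 2892 normalized counts in the same 4 tumors, so that, as a measure of remaining ovary, these 2 genes did not separate the tumors with *Fshr* from those without it.

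Per kilobase of the longest coding transcript in GENCODE M21, the mean levels over the 6 tumors ordered the genes as *Inha* (3486 normalized counts per kb), *Hsd3b1* (2816), *Cyp11a1* (2506), *Star* (1549), *Amh* (370), *Cyp17a1* (131), *Inhba* (95.1), *Lhcgr* (35.3), *Fshr* (12.3) and *Cyp19a1* (6.47). The order differed between tumors. In *Tgm2* KO tumor 1, *Hsd3b1* (13856 per kb) and *Cyp11a1* (10604) stood above *Inha* (7029) and *Star* (1320), whereas in WT tumor 2 *Hsd3b1* (0.579 per kb) and *Cyp11a1* (98.1) stood below *Inha* (3725) and *Star* (2217). Per kb, *Cyp11a1* was 2.76 times *Star* in WT tumor 1 and 8.04 times in *Tgm2* KO tumor 1, against 0.0442 to 0.0732 times in the other 4 tumors. Of the neighbours in the order of means, *Amh* was above *Cyp17a1*, *Inhba* above *Lhcgr* and *Lhcgr* above *Fshr* in all 6 tumors. The order of the other neighbours varied between tumors, as *Hsd3b1* was above *Cyp11a1* in 1 of 6, *Cyp11a1* above *Star* in 2 and *Inha* above *Hsd3b1* in 4.

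The comparison between genotypes asked whether the amount of these transcripts differed between tumors of WT and *Tgm2* KO hosts. None of the 9 genes that passed the filter on low values passed the limits used (adjusted p under 0.05, at least a log2 fold change of 1 up or down), and none had an unadjusted p under 0.05 in limma. Over all genes tested, 20 were higher in *Tgm2* KO tumors by these limits (0.102%) and 0 were lower (0%), and at an unadjusted p of 0.05, 668 (3.40%) were higher and 469 (2.38%) lower. *Fshr* did not pass the filter of at least 1 normalized count in at least 3 tumors. Of the 10 genes, 0 had every *Tgm2* KO tumor above or below every WT tumor, which was found for 5.18% (above) and 5.33% (below) of the tested genes. The smallest unadjusted p was that of *Inha*, with 3657 ± 1599 normalized counts in WT and 6628 ± 3287 in *Tgm2* KO tumors (mean ± SD, n = 3), a log2 fold change of 0.83 (SE 0.39, adjusted p = 0.881 from limma, with a 95% interval of -0.07 to 1.73). *Amh* and *Cyp17a1* had the largest estimates, 1.37 (SE 0.98) and 1.36 (SE 0.74). That of *Star* was -0.01 (SE 0.30, 95% interval -0.70 to 0.68), which leaves room for less than a doubling either way. The intervals were far wider for *Cyp11a1* (-4.16 to 5.20) and *Hsd3b1* (-6.21 to 8.87), so differences of many fold were not detectable with these tumors.

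The direction of the estimates depended on single tumors. The median log2 fold change of the 9 genes was 0.92, against -0.03 over all genes tested, and it was -0.44 without *Tgm2* KO tumor 1. Without both tumors numbered 1, an alternative chosen after seeing the data, it was 0.09. Leaving out *Tgm2* KO tumor 1 turned the estimates of *Cyp11a1* (to -1.77), *Hsd3b1* (to -2.07), *Cyp19a1* (to -0.87), *Inhba* (to -0.44) and *Lhcgr* (to -0.88) below 0, while those of *Cyp17a1* (0.43), *Inha* (0.45) and *Amh* (0.07) kept their sign. The estimate of *Cyp11a1* was also below 0 without WT tumor 2 (-0.31) or WT tumor 3 (-0.51), and that of *Hsd3b1* without WT tumor 2 (-1.41). In the 2 WT and 2 *Tgm2* KO tumors left without either tumor numbered 1, the groups did not overlap for *Cyp17a1* and *Amh*, both higher in *Tgm2* KO tumors, where 17.1% of the tested genes lay above and 21.2% below.

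**Figure D2:**
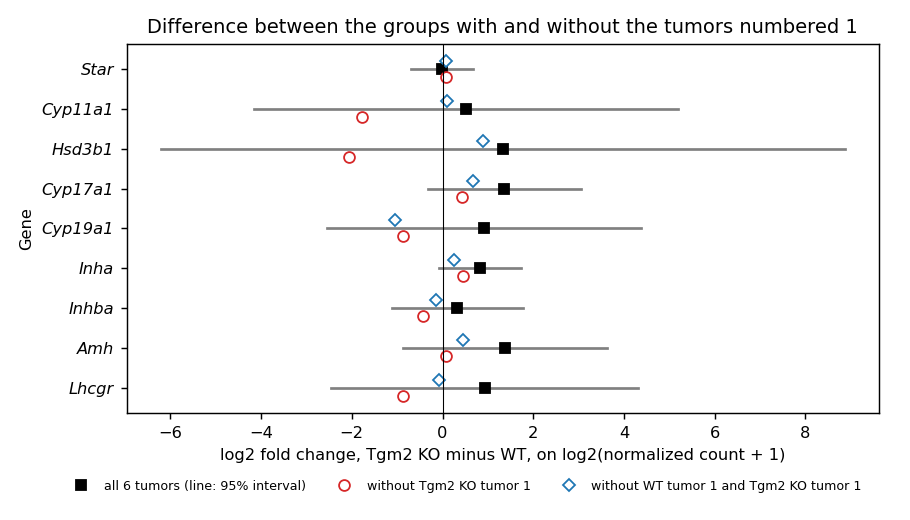
Log2 fold change (*Tgm2* KO minus WT) of the 9 tested genes with its 95% interval (black squares and lines), and the same value without *Tgm2* KO tumor 1 (red circles) and without both tumors numbered 1 (blue diamonds). Every interval includes 0, and 5 of the 9 estimates turn from above to below 0 without *Tgm2* KO tumor 1.

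Other genes of steroid synthesis were also measured. Of 12 measured enzymes and electron donors, 0 passed the limits, and 2 had an unadjusted p under 0.05, both higher in *Tgm2* KO tumors. These were *Hsd17b1*, the granulosa cell enzyme that completes estradiol (128, 230 and 77.1 normalized counts in WT and 918, 202 and 448 in *Tgm2* KO tumors, adjusted p = 0.776), and *Fdxr*, the first carrier of electrons to the side chain enzyme (1549.8, 1779 and 1673 against 3650.3, 2096 and 2248.5, adjusted p = 0.819, both from limma). *Fdxr* was above every WT tumor in each *Tgm2* KO tumor. *Akr1c18*, whose enzyme inactivates progesterone in the corpus luteum, had 1948 normalized counts in WT tumor 1 and 144 in *Tgm2* KO tumor 1, with 10.1 to 33.2 in the other 4. It belongs to a family of similar genes, among which *Akr1c14*, for example, was lowest in WT tumor 1, with 1262, and highest in *Tgm2* KO tumor 1, with 4186. Among the most abundant of the list, *Por* and *Cyb5a*, which serve the microsomal enzymes such as that of *Cyp17a1*, varied from 2579 to 5919 and from 3069 to 4827 normalized counts.

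Of 12 genes of the cholesterol supply to steroid synthesis, 0 passed the limits, and the hormone-sensitive lipase gene *Lipe* alone had an unadjusted p under 0.05 (log2 fold change 0.86, SE 0.37, adjusted p = 0.859 from limma). *Lipe* is also a fat cell gene. *Soat1*, which stores cholesterol as ester, had 11142 to 25058 normalized counts, and *Npc2* and *Tspo*, of cholesterol transport, were lowest in *Tgm2* KO tumor 1, at 9741 and 5392. The list's median in *Tgm2* KO tumor 1 against the median of the 4 tumors not numbered 1 was -0.12 on the log2 scale, beside 1.03 for the 12 other enzymes and electron donors, 4.51 for the 10 genes described and 0.02 for all tested genes, and these differences were not tested.

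Of 12 transcription factors of steroidogenic and gonadal cells, 0 passed the limits, and 1 had an unadjusted p under 0.05. This was *Nr0b1*, a repressor of steroidogenic genes, with 7.56, 6.25 and 2.03 normalized counts in WT and 159, 18.6 and 14.0 in *Tgm2* KO tumors (log2 fold change 2.66, SE 1.0, adjusted p = 0.813 from limma), so that the groups did not overlap. The most abundant factors were high in every tumor. *Wt1*, a factor of gonadal and mesothelial cells, had 13131 to 20641 normalized counts, *Gata4* 5201 to 10886 and *Nr5a1*, the steroidogenic factor, 2602 to 6180.4. A further 3 factors stood at least 4-fold above all other tumors in *Tgm2* KO tumor 1, as did *Nr0b1*. These were *Foxl2*, which keeps granulosa cell identity, *Nr5a2*, a granulosa and luteal factor, and *Lhx9*, of the surface epithelium and early gonad. The 3 were named after their values were seen. *Foxl2* had 1282 normalized counts there, 219 in WT tumor 1 and 23.7 to 84.1 in the others, and *Nr5a2* had 1706, 180 and 23.8 to 77.3.

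Activin, inhibin and anti-Müllerian hormone signaling genes outside the 10 were measured at 13 of 13, with 0 past the limits. *Fst*, whose product follistatin binds activin, had an unadjusted p under 0.05, at 837, 404 and 276 normalized counts in WT and 1395, 741 and 947 in *Tgm2* KO tumors (log2 fold change 1.13, SE 0.42, adjusted p = 0.805 from limma). *Amhr2*, the receptor for anti-Müllerian hormone, had 14265 to 26497 normalized counts and was lowest in *Tgm2* KO tumor 1, where *Amh* itself was highest. The activin beta subunit gene *Inhbb* (2086 to 3498) was above every WT tumor in each *Tgm2* KO tumor (log2 fold change 0.33, SE 0.20, adjusted p = 0.891 from limma). The receptor gene *Bmpr1a* (4063 to 5375) varied little. Of 7 receptors for sex steroids and pituitary hormones, 0 passed the limits and 3 had an unadjusted p under 0.05. Among these, the growth hormone receptor gene *Ghr* had a log2 fold change of 1.30 (SE 0.32), and the corticotropin receptor gene *Mc2r*, also expressed in fat cells, one of 2.17 (SE 0.62), with adjusted p of 0.542 and 0.649 from limma. The estrogen receptor gene *Esr1* had 1569 to 4763 normalized counts, with the highest in WT tumor 3.

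Of 11 granulosa cell markers, 9 were highest in *Tgm2* KO tumor 1 and 0 in WT tumor 1, where 10.7% of the tested genes were highest, and 0 of the 11 passed the limits between the groups, although 2 (*Hsd17b1* and *Fst*) had an unadjusted p under 0.05. The gap junction gene *Gja1* had 13489 normalized counts in *Tgm2* KO tumor 1 and 2697 to 4122 in the other 5 tumors. *Kitl*, which feeds growth signals to the oocyte, had 4726 to 8194 and did not set this tumor apart. Of 7 theca and interstitial markers, 4 were highest in *Tgm2* KO tumor 1 and 0 had an unadjusted p under 0.05. Among these, *Mgarp* had 1888 in WT tumor 1 and 3718 in *Tgm2* KO tumor 1 against 376 to 1411 elsewhere, and *Fdx1*, the partner of *Fdxr*, had 2163 and 2724 against 988 to 1374.

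Of 8 luteal cell markers, 4 (*Akr1c18*, *Ptgfr*, *Sfrp4* and *Runx2*) were highest in WT tumor 1 and 2 (*Prlr* and *Scarb1*) in *Tgm2* KO tumor 1, and 0 had an unadjusted p under 0.05. The prostaglandin receptor gene *Ptgfr*, through which the corpus luteum regresses, had 653 normalized counts in WT tumor 1 and 592 in *Tgm2* KO tumor 1, against 97.7 to 116 in the others. *Sfrp4* had 4860.5 and 3916, against 686 to 1507, and the prolactin receptor gene *Prlr* had 652 and 1628, against 29.7 to 97.7. *Scarb1*, the receptor for high-density lipoprotein, had 1927 to 5385. *Parm1*, with 1186 to 2501, did not set the tumors numbered 1 apart, and *Cited4*, named after its values were seen, had 1225 in WT tumor 1 and 1092 in *Tgm2* KO tumor 1, against 846 to 1599 in the others.

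Most oocyte markers were low outside *Tgm2* KO tumor 1. Of 12 measured, 11 were highest in that tumor, and 9 of them at least 4-fold above all others. *Gdf9*, a growth factor that oocytes send to granulosa cells, had 464 normalized counts there and 12.3 to 37.3 in the other 5 tumors. The zona pellucida gene *Zp2* had 596 there, 13.3 in WT tumor 1, 3.05 in WT tumor 3 and 0 in the other 3, so that *Tgm2* KO tumor 1 held both oocyte and granulosa cell transcripts. The exception was *Sohlh1*, at 569 to 1388 in every tumor. *Oosp1* had an unadjusted p under 0.05, with 8.62, 0 and 7.49 normalized counts in WT and 102, 84.6 and 67.3 in *Tgm2* KO tumors (log2 fold change 4.28, SE 0.93, adjusted p = 0.403 from limma), and in *Tgm2* KO tumors 2 and 3 it was present while *Zp1*, *Zp2* and *Zp3* were at 0. Of the 12 genes, *Zp1* and *Nobox* did not pass the filter, and 0 of the other 10 passed the limits. Of 10 cumulus and ovulatory genes, 0 were highest in *Tgm2* KO tumor 1 and 0 passed the limits, and the prostaglandin synthase gene *Ptgs2*, induced at ovulation and in inflammation, had an unadjusted p under 0.05 (log2 fold change -0.82, SE 0.32, adjusted p = 0.819 from limma).

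**Figure D3:**
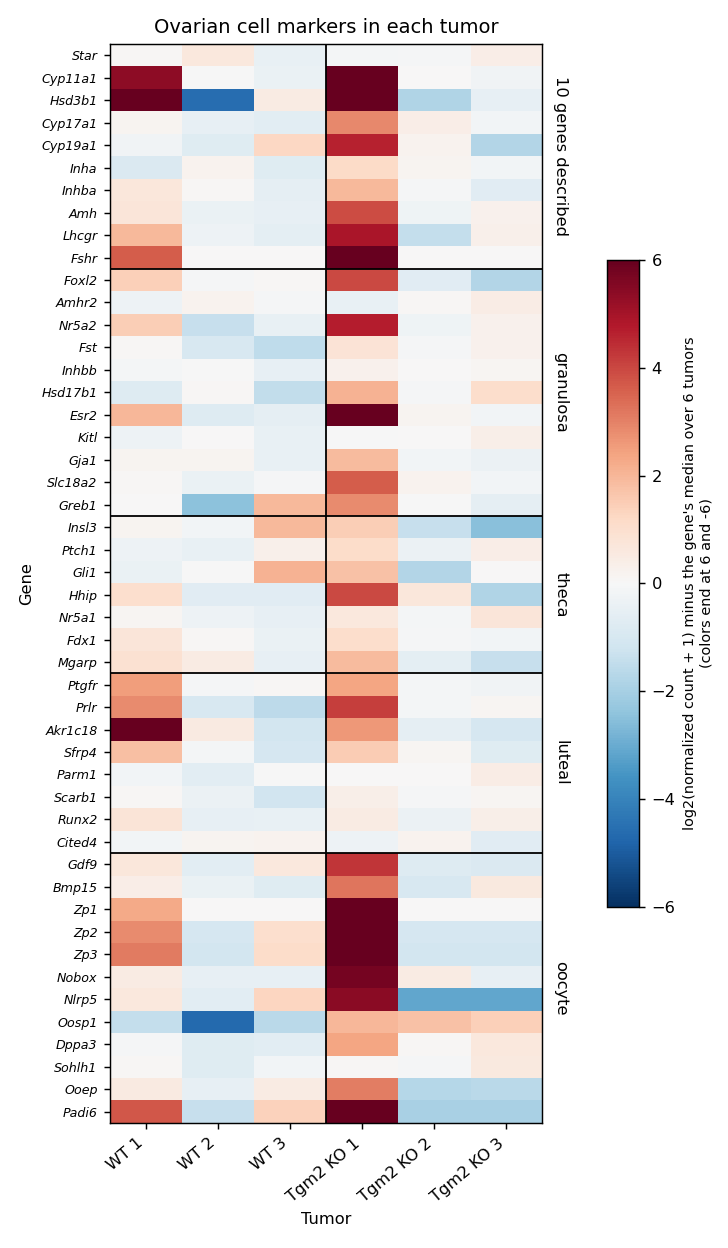
Log2(normalized count + 1) minus the median of the gene over the 6 tumors (color scale from -6 to 6), for the 10 genes described and for granulosa, theca, luteal and oocyte markers (rows) in each tumor (columns). *Tgm2* KO tumor 1 is the highest of the tumors for 9 of the 10 genes, 9 of 11 granulosa markers and 11 of 12 oocyte markers, while WT tumor 1 is also high for *Cyp11a1* and *Hsd3b1*, and it is the highest for the luteal gene *Akr1c18*.

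**Figure D4:**
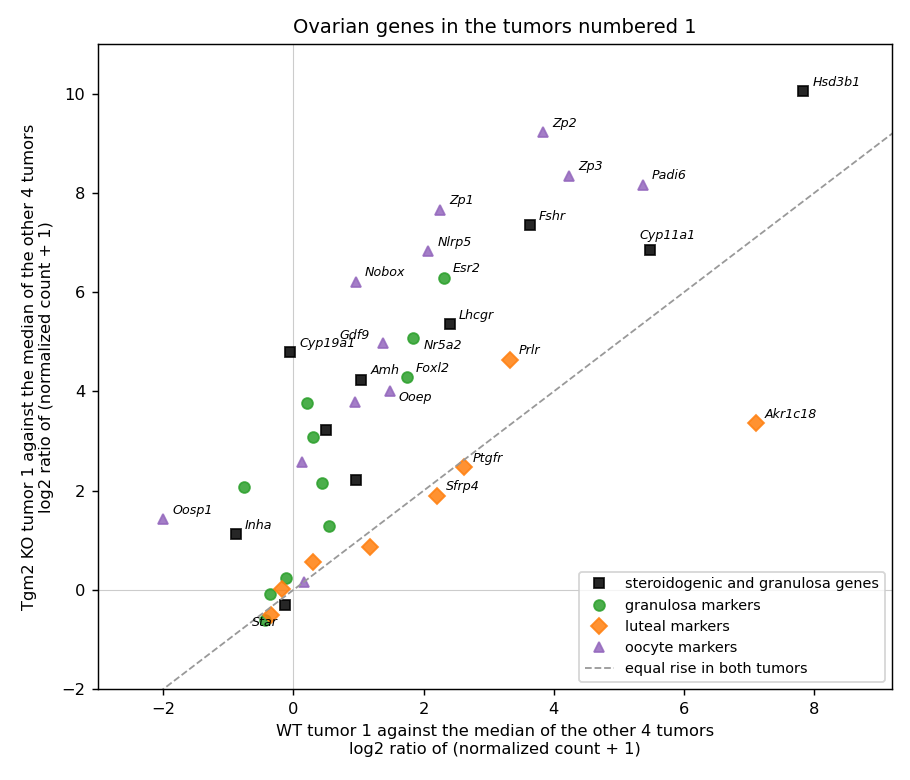
Log2 ratio of (normalized count + 1) to the median of the 4 tumors not numbered 1, in WT tumor 1 (horizontal axis) and *Tgm2* KO tumor 1 (vertical axis), for the 10 genes described and for granulosa, luteal and oocyte markers, with a dashed line where both ratios are equal. Most oocyte and granulosa markers lie above the line, *Ptgfr* and *Sfrp4* lie close to it, and *Akr1c18* lies below it.

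Over the 6 tumors, *Fshr* and *Lhcgr* had a Pearson r of 0.97 on the log2 scale and *Fshr* and *Cyp11a1* one of 0.97, while *Star* and *Cyp11a1* had -0.20 and *Inha* and *Cyp11a1* 0.32. These are descriptions over 6 libraries in which 1 or 2 tumors carry most of the spread. By the mean of the 10 genes after each was centered and divided by its SD, *Tgm2* KO tumor 1 stood at 1.51 and WT tumor 1 at 0.20, and the other 4 lay between -0.63 and -0.31. Among 16753 other genes with a mean of at least 10 normalized counts, the 8 whose pattern was most like this mean were *Ccbe1*, *Ush1g*, *Txndc2*, *Itih2*, *Smoc2*, *Fbxw16*, *Igkv14-100* and *Zp1*, with r from 0.990 to 0.994 over the 6 tumors. *Ccbe1* had 180, 116 and 88.7 normalized counts in WT and 593, 89.7 and 97.7 in *Tgm2* KO tumors, and *Smoc2* had 1484, 983 and 762 against 3249, 819 and 996. *Igkv14-100*, an immunoglobulin kappa variable gene, had 1422 in *Tgm2* KO tumor 1 and 7.17 to 28.9 elsewhere.

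Markers of neighboring tissues also varied between the tumors, and their part in the values above was not tested. The 8 oviduct markers, all above 0 in every tumor, summed to 489, 7833 and 14716 normalized counts in WT and 40690.4, 61027 and 485 in *Tgm2* KO tumors, with the secreted oviduct glycoprotein gene *Ovgp1* the most abundant. *Ovgp1* had 184 in WT tumor 1 and 37108 in *Tgm2* KO tumor 1, so that the tumors high in *Cyp11a1* differed widely in it, and *Foxj1*, of ciliated cells, and *Sox17* had 20.8 and 102 in the first and 1135 and 539 in the second. The 5 measured adrenal cortex markers, a second steroidogenic tissue, summed to 609, 244 and 478 in WT and 372, 958 and 744 in *Tgm2* KO tumors. Their defining gene *Cyp11b1* had 116 normalized counts in WT tumor 1 and 0 to 5.69 elsewhere, *Cyp21a1* had 367 in WT tumor 3 and 1.53 in WT tumor 1, and *Akr1b7* was lower in every *Tgm2* KO tumor (6.87 to 15.1) than in every WT tumor (22.3 to 186), with an adjusted p of 0.804. The most abundant, *Mrap*, is also a fat cell gene and had a log2 fold change of 1.85 (SE 0.57, adjusted p = 0.698, both from limma).

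The 12 white adipocyte markers, led by *Lpl*, summed to 42840.2, 56386 and 35136 normalized counts in WT and 47627, 168995 and 98876 in *Tgm2* KO tumors, with 0 of them at 0. *Lep*, the leptin gene, was the 1 of the 12 that rose past the limits (log2 fold change 3.74, SE 0.47, adjusted p = 0.0393 from limma), a call that was lost whichever tumor was left out (adjusted p from 0.0531 to 0.269), and 10 of 12 had an unadjusted p under 0.05, all higher. *Tgm2* KO tumor 1, the highest for the ovarian genes, had the lowest sum of the *Tgm2* KO tumors. Epithelial and mesothelial markers, led by *Krt8*, summed to 54421, 68967 and 65497 in WT and 48566, 46709 and 50779 in *Tgm2* KO tumors, with the mesothelial gene *Upk1b* at an unadjusted p under 0.05 (log2 fold change -0.93, SE 0.28, adjusted p = 0.664 from limma). Leukocyte markers, led by *Laptm5*, summed to 27503, 19622 and 15778 in WT and 19261, 37387 and 36985 in *Tgm2* KO tumors, and the B cell gene *Cd79a* rose past the limits (log2 fold change 3.01, SE 0.34, adjusted p = 0.0264 from limma), which was likewise lost whichever tumor was left out (adjusted p from 0.0644 to 0.161). Fibroblast markers, led by *Col3a1*, summed to 95348 to 305503, and endothelial markers, led by *Pecam1*, to 5468 to 9373, each lowest in WT tumor 3.

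**Figure D5:**
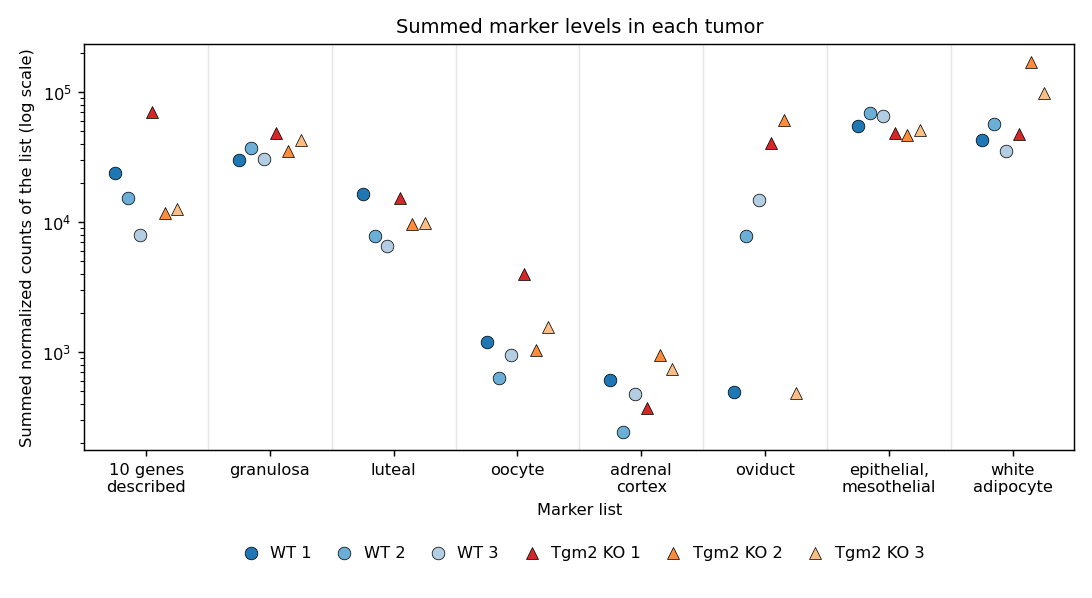
Summed normalized counts (log scale) of the 10 genes described and of 7 lists of cell type markers in each tumor, with circles for WT and triangles for *Tgm2* KO tumors. The sum of the 10 genes is 70823 in *Tgm2* KO tumor 1, 24054 in WT tumor 1 and 7890 to 15391 in the others, and the oviduct sum runs from 485 to 61027 in another order.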

How the data were processed

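Polyadenylated RNA of 6 primary tumors, 3 per genotype by the labels, was sequenced by the authors as paired reads of 100 bases and quantified with kallisto (0.46.2 and GRCm38 in the submitters' processing notes), and transcripts were assigned to genes through biomaRt. Genes with low expression were removed and DESeq2 size factors applied by the authors. The table is labelled TPM, but the signal the authors deposited is a normalized count per gene: column sums differ, and low values of genes with 1 transcript are whole multiples of 1 read (within 0.1 read) for 96.6% to 99.2% of values, against 42.0% to 48.6% for genes with several transcripts. Whole counts were therefore not recovered, and limma (3.58.1, R 4.3.3), which does not need counts, was fitted to log2(value + 1) with a variance trend over 19667 genes with at least 1 in at least 3 tumors, two-sided, with Benjamini-Hochberg adjustment. Fold changes are on this scale, on which those of low genes depend on the pseudocount (for *Cyp19a1*, 0.92 with 1 and 0.20 with 0.1). The 3 tumors against 3 allow no exact permutation p below 0.1. The limma p-values set a group difference against the spread between tumors of a group, moderated by that of genes of like level. The labels do not describe this spread further. The model was tested on simulated data with independent normal noise for each gene and a shift shared by all 3 *Tgm2* KO tumors. Patterns carried by single tumors were not simulated, so the test does not cover them.

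The members and lists were chosen with earlier results of these data known. Genes named are the 10 genes, *Tgm2*, in each list the 3 with the highest mean and any called or with an unadjusted p under 0.05, and the 8 genes most correlated with the mean of the 10; the rest were named with their values in view. Positions are from GENCODE M21 (GRCm38), matched by symbol. *Hsd3b6*, *Cyp11b2* and *Figla* were listed but not analysed here. For 1 gene that this rule names, the values are not reported here.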

Additional observations from a re-analysis of the deposited data

How the results depend on the processing

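None of the 9 tested genes passed the limits under any of the 16 other settings tried or 1 more chosen after seeing the data (without both tumors numbered 1), and their lowest adjusted p in limma was 0.464. *Cyp17a1*, *Inha* and *Amh* kept a log2 fold change above 0 under all of these. That of *Cyp11a1* was -0.48 with array weights. Leaving out 1 tumor at a time, the log2 fold changes ranged from -0.27 to 0.27 for *Star*, -1.77 to 2.37 for *Cyp11a1*, -2.07 to 4.28 for *Hsd3b1*, -0.87 to 2.31 for *Cyp19a1*, -0.44 to 0.86 for *Inhba* and -0.88 to 2.28 for *Lhcgr*. Without both tumors numbered 1 they were 0.068 for *Star*, -1.04 for *Cyp19a1*, -0.14 for *Inhba* and -0.074 for *Lhcgr*. The median of the 9 genes, 0.92, ranged from -0.44 (without *Tgm2* KO tumor 1) to 1.72 when 1 tumor was left out, and was 5.63 with the white adipocyte mean as a covariate. On the log2 scale that mean was 9.50 to 10.2 in WT and 10.8 to 12.4 in *Tgm2* KO tumors. Since the groups did not overlap in it, that fit cannot separate genotype from the covariate, and no size of difference is read from it. Of the 10 genes, 0 to 2 had groups that did not overlap when 1 tumor was left out (2 without WT tumor 1, 1 without WT tumor 2 or *Tgm2* KO tumor 3, each higher in *Tgm2* KO tumors, where 11.9%, 9.29% and 9.65% of all tested genes were), and 2 without both tumors numbered 1; the other scalings, pseudocounts and model settings were not run for this count. The 20 genes higher in *Tgm2* KO tumors were 4 without a variance trend, 0 with the adipocyte covariate, 11 without both tumors numbered 1 and 2 to 15 with 1 tumor left out (2 without WT tumor 2, 7 without WT tumor 1, 11 without *Tgm2* KO tumor 2, 13 without WT tumor 3 or *Tgm2* KO tumor 1), and the 0 lower genes were 1 and 0 to 1 in these last settings. The cause was not tested. Over the tested genes, deviations from the group mean had r of -0.20, 0.28 and -0.31 between tumors with the same replicate number. With 3 tumors per group, these values cannot show whether the numbers pair the tumors. With the replicate number as a block, 5 genes were higher. With 1 read near 1 normalized count, outside *Tgm2* KO tumor 1 *Cyp19a1* rests on at most 7.15 and *Fshr* on at most 11.4 normalized counts.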
